A study of Mus musculus with 8 samples.

Results

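In mouse hepatocytes, 417 chromatin regions were among the strongest ATAC-Seq peaks before partial hepatectomy (PHx). They were among the strongest again 72 and 96 h after it, but not 48 h after it. ATAC-Seq marks open DNA by the places where the Tn5 transposase can insert adapters, and a peak is a stretch with more insertions than its surroundings. The regions were chosen by the peak caller's own p-values: in each of 8 peak lists the 50000 distinct intervals with the highest −log10 p on chromosomes 1 to 19 and X were kept, overlapping intervals were merged across lists into 73721 consensus regions, and a region was taken if a kept interval covered it in all 6 lists of 0, 72 and 96 h and in neither list of 48 h. The 417 regions were 0.566% of all consensus regions and 1.33% of the 31252 regions found in the 6 lists of 0, 72 and 96 h. Because measured values chose them, their levels at 48 h against the other times are a description without a test.

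The libraries came from liver hepatocytes of C57BL/6 mice aged 10 to 12 weeks on a normal diet, obtained by collagenase perfusion. These are the strain and age on the labels, and the study's methods name male C57BL/6J mice and give a slightly lower age at PHx. The groups were undamaged liver (0 h) and liver 48, 72 and 96 h after PHx, with 2 libraries each. No genotype or drug differed between the groups, and no sham-operated liver was among the 8 libraries. The deposited lists hold no reads, so depth is unknown, and in bulk nuclei a closed site in a share of the cells cannot be told apart from a partly closed site in every cell.

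Hepatocytes leave quiescence after PHx and divide within days while the liver goes on with its metabolic work. Open regions away from promoters are often enhancers, where cell-type factors bind. In hepatocytes these factors include the FOXA proteins, which can bind closed chromatin, the C/EBP proteins, the ONECUT factors such as HNF6, and HNF4A, which shares the DR1 type of element with PPARA, the receptor that switches on fatty acid oxidation. CTCF, in contrast, is bound in most cell types and anchors chromatin loops.

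The 5 sequences that follow were picked from the regions named in the text, after their values had been seen, because each holds a match to a hepatocyte factor's motif at a gene of interest. Each spans 200 bp around the summit of a region's strongest interval and was read from the mouse reference GRCm38.p6, to which the mm10 coordinates of the deposited lists apply. Capitals mark matches, on either strand, to TNTTTAC (FOXA), TTGCNNAA (C/EBP), ATTGANT (ONECUT) and AGGNCAAAG, which covers only a part of the DR1 element and is called the DR1 part here.
Dnah11 intron, chr12:117981185-117981384, plus strand: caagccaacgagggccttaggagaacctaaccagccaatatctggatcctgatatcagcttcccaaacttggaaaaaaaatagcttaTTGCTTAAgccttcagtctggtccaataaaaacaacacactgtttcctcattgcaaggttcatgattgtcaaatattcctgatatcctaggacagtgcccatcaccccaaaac
Ulk4 intron, chr9:120973350-120973549, plus strand: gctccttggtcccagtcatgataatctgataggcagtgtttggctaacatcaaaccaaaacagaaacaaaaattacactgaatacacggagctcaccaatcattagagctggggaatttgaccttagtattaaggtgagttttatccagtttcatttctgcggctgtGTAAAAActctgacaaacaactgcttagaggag
Nfia intron, chr4:97911846-97912045, plus strand: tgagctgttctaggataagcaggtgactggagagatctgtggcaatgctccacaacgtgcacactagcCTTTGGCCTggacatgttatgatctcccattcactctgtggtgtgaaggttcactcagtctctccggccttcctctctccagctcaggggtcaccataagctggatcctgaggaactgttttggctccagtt
Slc2a2 intron, chr3:28725396-28725595, plus strand: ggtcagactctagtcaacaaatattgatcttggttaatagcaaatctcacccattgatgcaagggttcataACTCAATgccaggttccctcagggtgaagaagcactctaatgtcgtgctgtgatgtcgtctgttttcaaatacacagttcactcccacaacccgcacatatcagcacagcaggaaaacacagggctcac
Cpt1a intron, chr19:3333206-3333405, plus strand: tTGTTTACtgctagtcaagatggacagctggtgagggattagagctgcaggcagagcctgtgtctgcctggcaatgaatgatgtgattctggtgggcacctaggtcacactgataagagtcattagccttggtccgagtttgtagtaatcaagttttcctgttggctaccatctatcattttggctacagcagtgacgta

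The Dnah11 intron window held a C/EBP match 9 bp from the summit. The window in Ulk4, whose nearest coding start site is that of Ctnnb1, held a FOXA match 70 bp from it. In Nfia, which encodes a nuclear factor I protein of liver gene regulation, the match was to the DR1 part, on the minus strand. The Slc2a2 window held an ONECUT match 26 bp from the summit, and the Cpt1a window a FOXA match close to its edge.

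The 417 regions ranked lower by −log10 p within the 48 h lists than within any other list, as their choice required. The rule did not use fold enrichment, which comes from the same peak calls. Their median fold enrichment, the tag density at the summit over the local background as the peak caller gave it, was 8.25 and 8.02 in the 0 h libraries. It was 3.91 and 4.02 in the 48 h libraries, 7.94 and 7.41 in those of 72 h and 7.95 and 6.95 in those of 96 h. In the 48 h libraries only 376 and 403 of the 417 regions had an interval, and the others entered these medians as 0. The regions that were in all 8 lists (n = 28523) also had lower medians at 48 h, 8.14 and 8.85, against 10.0 to 11.6 in the other libraries. Of the 417 regions, 364 still had an interval in both full 48 h lists. In those 364 the mean 48 h fold enrichment was a median of 0.498 of the mean of the other 6 libraries, with quartiles of 0.450 and 0.573 and a range of 0.256 to 0.932. The same ratio had a median of 0.790 in the regions of all 8 lists and 0.623 in the 2312 regions that 1 of the 48 h lists had kept, the latter over those with an interval in both full lists. In 185 of the 364 regions (50.8%) the ratio was under 0.5.

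**Figure D1:**
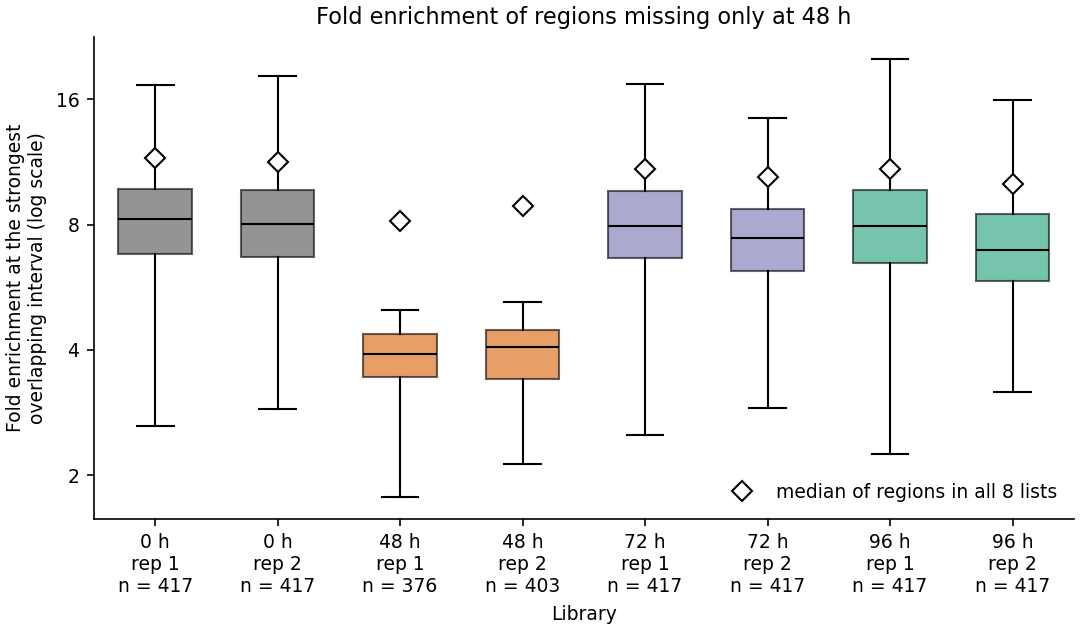
Fold enrichment (log axis) of the 417 regions in each of the 8 libraries, at the strongest overlapping interval of the full list, with 376 and 403 regions in the 48 h boxes because the others have no interval there; boxes give the median and quartiles, whiskers the lowest and highest value, diamonds the median of regions in all 8 lists. The 48 h medians are 3.91 and 4.02, and the medians of the other 6 libraries lie between 6.95 and 8.25.

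**Figure D2:**
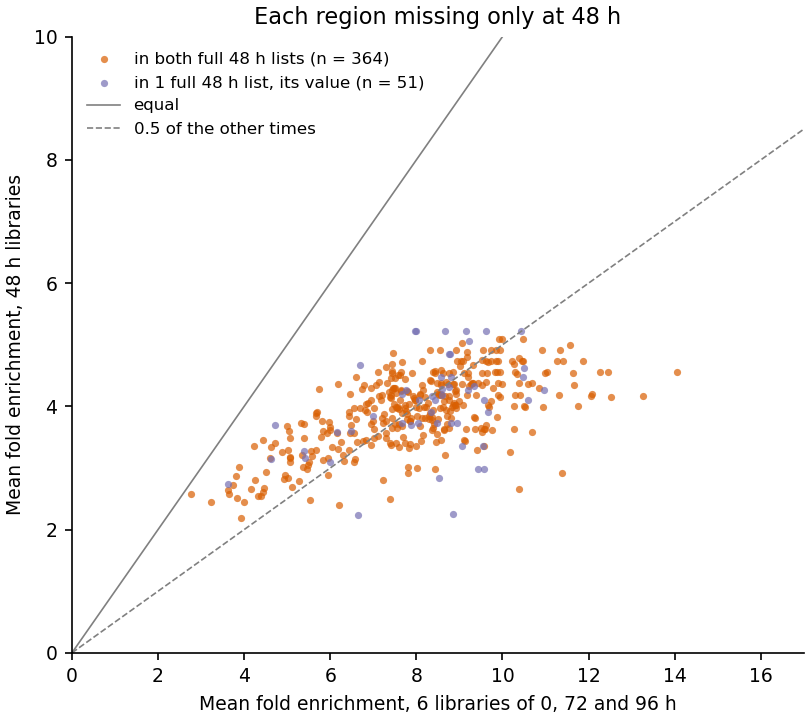
Each point is 1 of the 415 regions with an interval in at least 1 full 48 h list, with the mean fold enrichment of the 6 libraries of 0, 72 and 96 h on the x axis and that of the 48 h libraries on the y axis. The 364 regions seen in both full 48 h lists lie below the line of equality, 185 of them also below the dashed line at 0.5.

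Missing from the strongest 50000 did not mean that no peak was called. Besides the 364 regions in both full 48 h lists, 51 had an interval in 1 of them and 2 in neither. The interval passed q under 0.05 at 367 regions in the library labelled 48 h replicate 1 and at 389 in replicate 2. The median strongest rank of a region at 48 h was 56214. It was at most 55000 in 182 regions, at most 60000 in 289, at most 70000 in 377, and beyond 100000 or absent in 7. Most of the regions therefore sat a short way past the limit at 48 h. In replicate 1 of 48 h, 14 regions had the same −log10 p as the interval of rank 50000, so that the order of ties kept them out. In replicate 1 of 0 h, 3 regions had the value of that rank and were let in by the order of ties.

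Just inside the limit were a region near Fam19a2 with a strongest 48 h rank of 50034 and a region near Arhgap29 whose weakest rank at the other times was 49984. Just outside were a region near Mthfd1, which 1 of the 48 h lists held at rank 49987, and a region near 1500011B03Rik, which missed 1 of the 6 lists with a rank of 50004. In all, 832 regions were in 5 of the 6 lists and in neither 48 h list.

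Which regions qualified depended on the limit. With 25000 intervals per list 238 regions met the rule and overlapped 2 of the 417, and with 100000 intervals 837 met it and overlapped 7. With every interval of −log10 p of at least 15 kept in place of an equal number, 1730 met it and overlapped 128. With a single 48 h library in the rule, the count was 1383 without replicate 1 and 1770 without replicate 2. With 50% of a region to be covered 572 met it, among them 211 of the 417. The values that follow describe the regions at 1 depth of the lists, and the promoter, C/EBP, ONECUT, FOXA and CTCF shares are given for other limits too. The same rule turned to the other times found 260 regions missing only at 0 h, 138 only at 72 h and 155 only at 96 h. In the reverse direction 369 regions were kept in both 48 h lists and in no other.

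Of the 2 regions absent from both full 48 h lists, the region at chr18:75043849-75044307 is in an intron of Dym, a gene of Golgi organization. Its fold enrichment was 6.72 and 6.57 at 0 h, 7.37 and 5.66 after 72 h and 5.30 and 4.75 after 96 h. The 6 values ran from 4.75 to 7.37, and no interval was called there or within 250 bp in either 48 h list.

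The regions that stood highest in the 6 lists were distal. Ranked by their lowest percentile within the full lists of 0, 72 and 96 h, the leading region was at chr8:115831513-115832250, 124063 bp upstream of Maf, which encodes a bZIP transcription factor. Its fold enrichment was 10.4 and 11 at 0 h, 4.05 and 3.22 after 48 h, 10.1 and 9.21 after 72 h and 8.57 and 8.03 after 96 h. Both 48 h values were below every other value. A region 5733 bp downstream of the start of Gsc, a homeobox gene of the embryo, was at chr12:104467193-104467923. There the fold enrichment was 12.8 and 13.5 at 0 h, 3.20 and 2.13 after 48 h, 10.0 and 7.72 after 72 h and 9.27 and 9.06 after 96 h, again without overlap. The Dnah11 intron region at chr12:117980782-117981447 had 16.5 and 15.4 at 0 h, 3.91 and 5.22 after 48 h, 14.5 and 9.92 after 72 h and 14.7 and 13.4 after 96 h. Its host gene encodes a dynein chain of cilia, and the nearest coding start site, of Cdca7l, is 137770 bp away. The next regions lay 196795 bp upstream of Tle3, a Groucho-type corepressor, and 1463263 bp upstream of Sel1l, a component of protein quality control in the endoplasmic reticulum. At the Tle3 region the 6 values of 0, 72 and 96 h ran from 9.81 to 14.0 and the 48 h values were 3.20 and 5.22. At the Sel1l region they ran from 9.81 to 16.2, and at 48 h they were 3.91 and 5.22.

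Few of the 417 regions were at promoters. A region counted as promoter if it lay within 1 kb of an annotated transcription start site of any gene. That held for 31 regions (7.43%, 95% Wilson interval 5.29 to 10.4%), against 23.9% of all consensus regions, 40.4% of the regions in all 8 lists and 16.4% of the regions that 1 of the 48 h lists kept. It held for 13.8%, 20.3% and 14.2% of the regions missing only at 0, 72 and 96 h. Introns of coding genes took 206 regions (49.4%) and intergenic DNA 144 (34.5%). Another 18 were in noncoding genes, 10 in coding exons and 8 in untranslated exons. The median distance from the summit to the nearest coding start site was 27741 bp, against 17614 bp for all regions, and 147 regions (35.3%) lay beyond 50 kb, against 26.2%. The regions missing only at 0 h were as far from genes, with a median of 29716 bp and 34.2% beyond 50 kb. The 417 regions had a median width of 667 bp, with a range of 242 to 2339 bp. Their median GC content at the summit was 48.5%, against 55% in the regions of all 8 lists and 51% in those missing only at 0 h. It was likewise 48.5% in those missing only at 72 h and those open only at 48 h. Regions are not replicates of a condition, so no test was made of these shares, and the intervals cover counting error over regions only.

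**Figure D3:**
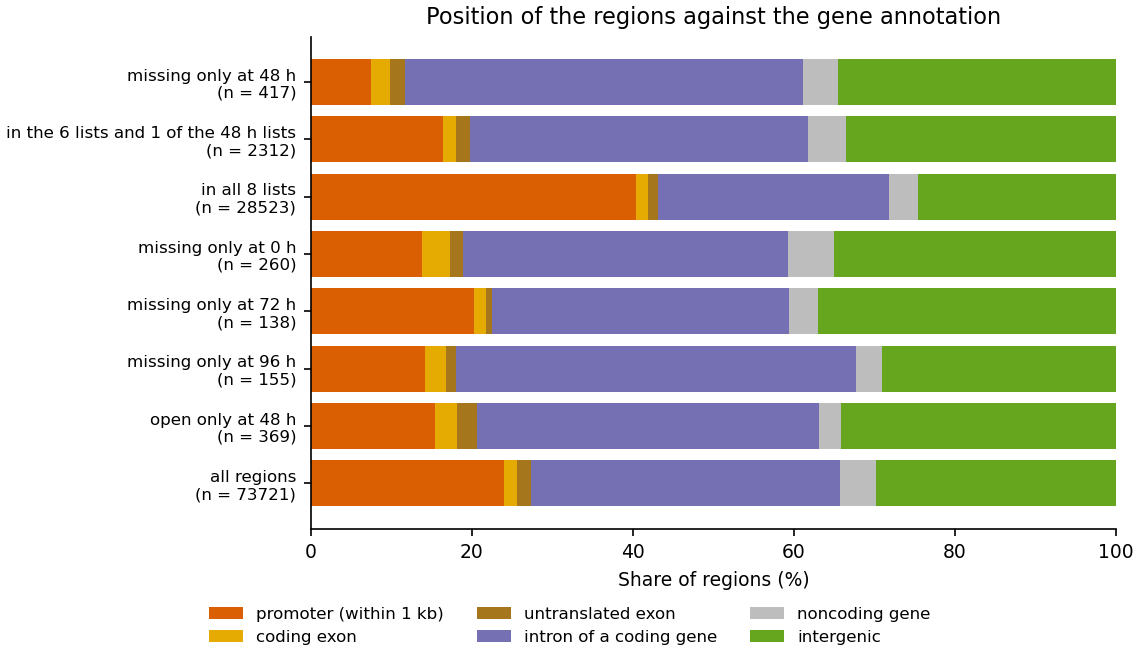
Share of regions (%) in each position class for the 417 regions missing only at 48 h and 7 other sets; the number of regions is beside each bar. Promoters take 7.43% of the 417 regions and 40.4% of the regions in all 8 lists.

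Strong peaks are more often promoters, so the regions were also set beside others of like strength, a comparison chosen after the data were seen. Among the 4944 regions of the 6 lists whose lowest percentile lay between the quartiles of the 417 regions, 62.2 and 69.1, promoters were 19.6%, and among the 209 of the 417 regions in that range they were 7.66%. The regions of that range that were in all 8 lists had a median 48 h ratio of 0.828. At a limit of 25000 intervals the promoter share was 26.5%, against 57.2% in regions of all 8 lists, and at 100000 it was 8.84% against 29.1%. The share was thus lower than in regions of all 8 lists at each of the 3 limits, while its own size moved with the limit. With −log10 p of at least 15 it was 20.6% against 49.8%. It also depended on both 48 h libraries being in the rule, with 11.6% without replicate 1 and 15.9% without replicate 2.

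The 5 promoter regions of coding genes that stood highest were near Kantr, Gpr151, Chdh, Tbc1d15 and Timmdc1. Chdh encodes choline dehydrogenase, which starts the conversion of choline to betaine in liver mitochondria. Its region at chr14:30009876-30010510, with the summit 1070 bp downstream of the start site, had a fold enrichment of 6.52 and 6.69 at 0 h, 2.62 and 3.34 after 48 h, 4.76 and 4.67 after 72 h and 4.93 and 5.24 after 96 h. The 48 h values were the lowest, and those of 72 and 96 h were below both values of 0 h. At the Tbc1d15 promoter, chr10:115250257-115250798, the 48 h values were 3.19 and 3.65 and the other 6 lay between 4.60 and 8.90. Tbc1d15 encodes a GTPase-activating protein. At Timmdc1, which encodes an assembly factor of respiratory complex I, the region chr16:38521090-38521886 had 3.43 and 3.72 at 48 h and between 5.59 and 7.02 elsewhere. Kantr on chromosome X had 4.26 and 5.22 at 48 h and between 8.13 and 15.9 elsewhere, and the region 1162 bp upstream of Gpr151 had 4.12 and 3.06 against 7.38 to 11.4. The pair 4.26 and 5.22 was also found at 48 h at the Nfib region described below, so such values recur and are not finely graded.

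Motif matches were sought in the 200 bp at the summits, and a match describes the letters only. At least 1 match to the 6 hepatocyte motifs searched (FOXA, C/EBP, ONECUT, the DR1 part, the HNF4 form CAAAGTCCA, and GTTAATNAT for HNF1) was found in 188 of the 417 regions (45.1%), against 33.2% of all regions and 26.9% of the regions in all 8 lists. The share was 30%, 43.5% and 36.8% in the regions missing only at 0, 72 and 96 h, so that of the regions missing only at 72 h was close to it. These combined shares include promoters. They were not taken with promoters left out, nor for the regions that 1 of the 48 h lists kept.

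C/EBP matches were in 78 of the 417 regions (18.7%, interval 15.3 to 22.7%), against 13.2% of all regions, 10.8% of the regions in all 8 lists and 10.0%, 18.8% and 12.9% of the regions missing only at 0, 72 and 96 h. ONECUT matches were in 60 (14.4%, interval 11.3 to 18.1%), against 9.66% of all regions and 6.88% of the regions in all 8 lists. The ONECUT share was 8.85%, 16.7% and 6.45% in the regions missing only at 0, 72 and 96 h and 13.6% in those open only at 48 h, so it was not highest in the 417 regions. With promoters left out C/EBP matches were in 18.9% and ONECUT matches in 14.0% of the regions missing at 48 h, against 15.3% and 11.5% of all regions. On the same footing the regions that 1 of the 48 h lists kept had 18.9% and 11.9%, and those missing only at 72 h had 21.8% and 20.9%, so that neither share set the 417 regions apart from these sets. With promoters included, the shares among the 209 regions of middle strength were 20.6% for C/EBP and 14.4% for ONECUT, against 14.4% and 9.63% of all 4944 regions of that strength. With promoters left out they were 21.2% and 14.0%, against 15.9% and 10.6%. Matches to the DR1 part were in 21 regions (5.04%) and to the HNF4 form in 10 (2.40%), against 3.08% and 1.36% of all regions. The shares for the DR1 part were 2.69%, 2.90% and 6.45%, and for the HNF4 form 0%, 2.90% and 3.23%, in the regions missing only at 0, 72 and 96 h, so that some of these sets were above the 417 regions. FOXA matches were in 49 (11.8%, interval 9.0 to 15.2%), with 11% of all regions inside that interval and 8.91% of the regions in all 8 lists just below it. With promoters left out the FOXA shares were 11.9%, 12.9% and 12.4%, so that the regions missing at 48 h were no longer above either set.

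CTCF matches were scarce. They were in 7 of the 417 regions (1.68%, interval 0.815 to 3.42%), against 6.33% of all regions and 6.73% of the regions in all 8 lists. In the regions missing only at 0, 72 and 96 h the CTCF share was 12.7%, 5.80% and 7.10%, and in the regions open only at 48 h it was 8.94%. Leaving promoters out, it was 1.81% of the regions missing at 48 h and 7.61% of all regions. In the middle range of strength, promoters included, 1.91% of the regions missing at 48 h and 8.70% of all regions of that range had a match. With promoters left out these shares were 2.07% and 9.99%. At limits of 25000 and 100000 intervals, where the members are almost wholly other regions, the CTCF share was 1.26% and 2.99%, against 5.12% and 6.50% in the regions of all 8 lists. The C/EBP share at those limits was 18.5% and 17.9%, against 8.28% and 12.5%, and the ONECUT share 9.66% and 11.7%, against 5% and 8.73%. The FOXA share was 12.6% and 14.1%, against 6.46% and 10.4%, with promoters included in all of these. With −log10 p of at least 15 the shares were 2.02% for CTCF, 16.9% for C/EBP and 11.9% for ONECUT, against 6.48%, 9.02% and 5.58%. With 48 h replicate 2 left out of the rule the CTCF share was 4.52%, and with replicate 1 left out it was 2.96%.

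**Figure D4:**
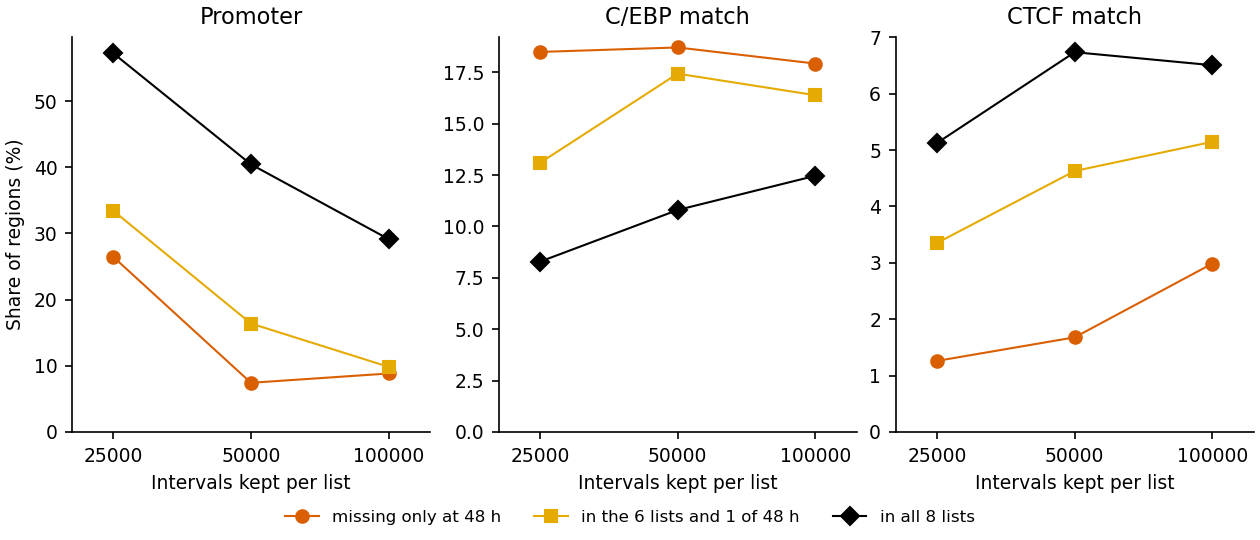
Share of regions (%) at promoters, with a C/EBP match and with a CTCF match, for 25000, 50000 and 100000 intervals kept per list. At each limit the regions missing only at 48 h had the lowest promoter and CTCF shares and the highest C/EBP share of the 3 sets, and regions kept in 1 of the 48 h lists lay between.

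SP/KLF matches (GGGGCGG) were in 14 regions (3.36%) against 9.04% of all, and ETS matches (CCGGAAG) in 5 (1.20%) against 3.31%. With promoters left out the SP/KLF shares were 2.59% and 2.60% and the ETS shares 0.777% and 1.13%. The AP-1 motif TGANTCA, bound by the Fos and Jun proteins of the early growth response, was in 32 regions (7.67%, interval 5.49 to 10.6%), close to 7.88% of all regions. In the 369 regions open only at 48 h it was in 17.1%. No match to the CREB motif TGACGTCA was found, against 0.483% of all regions, and 0 of 417 allows a share of up to 0.719% at a limit of 3 counts.

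**Figure D5:**
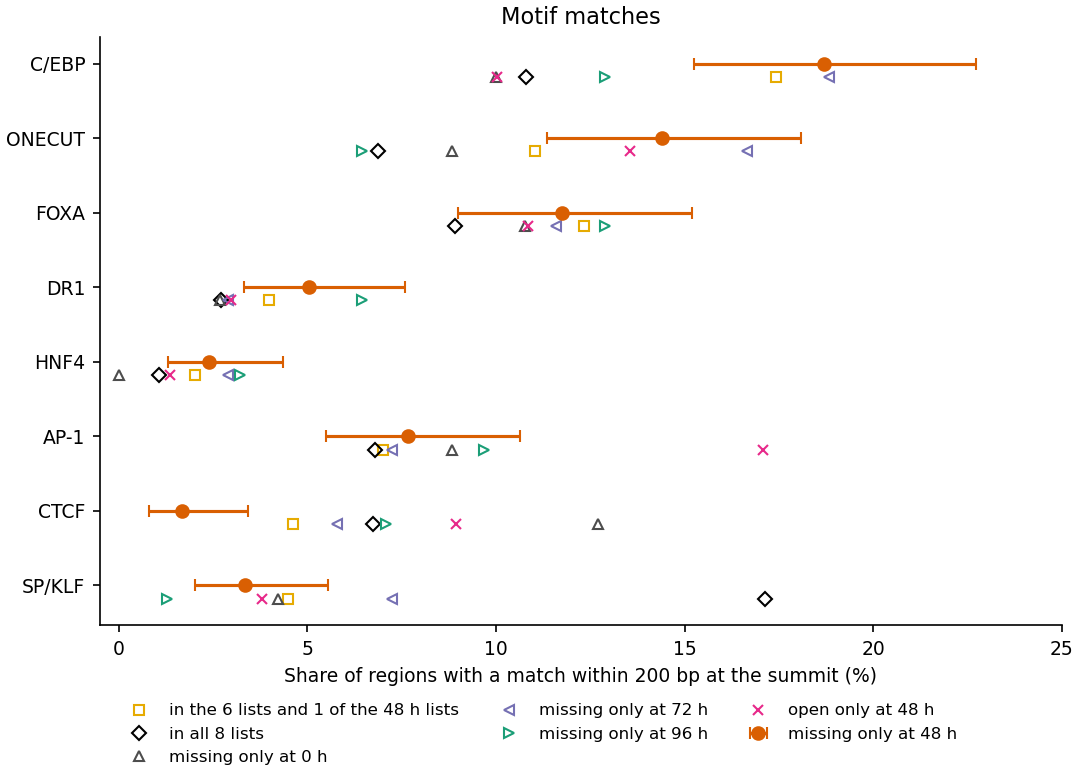
Share of regions (%) with a motif match in the 200 bp at the summit; filled circles with 95% Wilson intervals are the 417 regions missing only at 48 h, and open symbols, drawn just below, are 6 other sets. C/EBP stands at 18.7% and CTCF at 1.68% in the 417 regions.

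The regions were spread over 404 different nearest coding genes, and 22 of them were nearest to 1 of the genes on 11 lists of liver and cell cycle genes. These 22 were 1.72% of the 1282 regions of the 6 lists near a listed gene and the 417 regions were 1.33% over all genes. None of the 83 regions near genes of the plasma protein list and none of the 67 near those of the circadian clock list was missing only at 48 h. So few regions cannot set a count of 0 apart from the share of 1.33% over all genes. The lists with regions were lipid and bile acid metabolism (5 of 167 regions), hepatocyte transcription factors and nuclear receptors (5 of 258), glucose and glycogen metabolism (3 of 110), xenobiotic metabolism (2 of 67), growth factor, cytokine and insulin signalling (2 of 179) and other liver cell types (2 of 33). The lists of amino acid and urea metabolism, of fetal, progenitor and biliary genes and of the cell cycle had 1 each, near Hpd, Gata4 and Mycn. Nearness does not show which gene a region acts on, and with the nearest start site within 50 kb 14 of the 22 were left.

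In lipid metabolism, Cpt1a, which encodes the carnitine palmitoyltransferase that lets fatty acids into mitochondria, had 2 of the regions in its introns. At chr19:3332952-3333645, 10021 bp into the gene, the fold enrichment was 3.77 and 4.68 at 0 h, 2.80 and 2.51 after 48 h, 3.13 and 4.14 after 72 h and 3.39 and 5.89 after 96 h. At chr19:3326213-3326886, where the 200 bp held a match to the DR1 part, it was 3.27 and 3.50 at 0 h, 2.79 and 2.50 after 48 h, 3.66 and 4.39 after 72 h and 3.17 and 3.72 after 96 h. The 48 h values were the lowest at both, by a smaller step than at the Maf region. Further regions of the list were near Elovl6, a fatty acid elongase gene, and Lipc, the gene of hepatic lipase. At the Lipc region, 76052 bp upstream, the 48 h values were 3.91 and 4.08 and the other 6 lay between 5.72 and 12.3.

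The only place with 3 regions, each no more than 100 kb from the next, was at Ppara and the neighbouring Cdpf1, whose start site was the nearest to 2 of the 3. The place, chr15:85705437-85808752, held 7 regions of the 6 lists. The leftmost of the 3 was at the promoter of the noncoding gene Lncppara, 29748 bp upstream of Ppara, with a fold enrichment of 4.39 and 4.54 at 0 h, 2.56 and 2.52 after 48 h, 3.95 and 3.50 after 72 h and 4.21 and 5.35 after 96 h. Another, in a Ppara intron, had 2.25 and 2.78 at 48 h and between 3.55 and 4.51 elsewhere, and the last, in Cdpf1, had 2.84 and 2.54 against 3.71 to 6.09. There were 9 further places with 2 regions each, among them those of Cpt1a and Fbxw7, and 396 of the 417 regions stood alone. Snx29, a sorting nexin gene, was the nearest gene of 3 regions, all in its introns, the most for any gene.

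Among the other regulators, 3 genes of the nuclear factor I family were each nearest to 1 region. The Nfia intron region at chr4:97911768-97912072 had 8.05 and 5.97 at 0 h, 3.21 and 3.42 after 48 h, 6.76 and 5.53 after 72 h and 5.55 and 5.22 after 96 h. The Nfib region was in the noncoding gene Gm5860, 415457 bp from the Nfib start, with 4.26 and 5.22 at 48 h and 6.95 to 10.5 elsewhere. The Nfic promoter region differed least, with 2.96 and 3.08 at 48 h and 3.46 to 4.27 elsewhere. At the promoter of Rara, a retinoic acid receptor gene, chr11:98937231-98938177, the fold enrichment was 4.72 and 8.88 at 0 h, 2.58 and 2.99 after 48 h, 4.95 and 3.70 after 72 h and 4.41 and 5.03 after 96 h. Replicate 1 of 0 h was among the values of 72 and 96 h there, and replicate 2 was above all of them.

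The glucose genes with a region were Slc2a2, the gene of the glucose transporter GLUT2, Ppp1r3c, a glycogen-targeting subunit of protein phosphatase, and Ppargc1a, a coactivator of gluconeogenesis. At the Slc2a2 region, chr3:28724885-28726128, 27593 bp downstream of the start site, the fold enrichment was 4.90 and 3.67 at 0 h, 3.39 and 3.44 after 48 h, 5.64 and 4.79 after 72 h and 4.53 and 4.76 after 96 h. Replicate 2 of 0 h was close to both 48 h values, and the ranks at 48 h, 51120 and 50163, were just past the limit. The Ppp1r3c region was at the promoter of the noncoding gene Hectd2os, with 3.91 and 3.35 at 48 h and 6.13 to 11.8 elsewhere. The region 11675 bp upstream of Cyp3a25, a drug-metabolizing P450 gene, had 4.38 and 4.45 at 48 h and 7.32 to 9.63 elsewhere.

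In signalling, the nearest genes were Ctnnb1, which encodes beta-catenin of the Wnt pathway, and Tgfbr2, a receptor for TGF-beta, a brake on hepatocyte division. The Ctnnb1 region at chr9:120972847-120973937 is in an intron of Ulk4, 39878 bp from the Ctnnb1 start, and had 8.90 and 13.5 at 0 h, 3.58 and 3.82 after 48 h, 10.7 and 5.96 after 72 h and 10.1 and 8.49 after 96 h. The Tgfbr2 region, 2898 bp upstream, had 3.59 and 2.82 at 48 h and 4.17 to 8.13 elsewhere. The region upstream of Reln, a stellate cell gene, had 9.18 and 10.2 at 0 h, 3.64 and 3.06 after 48 h, 6.28 and 6.71 after 72 h and 6.07 and 7.23 after 96 h. Here the 72 and 96 h values lay between those of 48 h and 0 h.

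The rule held 0, 72 and 96 h to the same limit but set no order among them, so the levels at 72 and 96 h can be set beside those at 0 h. The median rank among all intervals, counted from the strongest, was 33862 and 31394 at 0 h, 32275 and 35655 after 72 h and 34304 and 31883 after 96 h. The medians of the 3 times thus overlapped. By rank, 66 of the 417 regions (15.8%) were stronger in the pair of 72 h libraries than in either 0 h library, against a background of 20.0% of the regions in the 6 lists, and 96 (23.0%) were weaker in both, against 22.8%. At 96 h 75 (18%) were stronger, against 16.4%, and 84 (20.1%) were weaker, against 19.1%. The first of these shares by rank was below its background and the other 3 were near theirs. By fold enrichment, a measure added after the data were seen, 60 (14.4%) were higher and 103 (24.7%) lower in both 72 h libraries compared with the pair of 0 h, against 10.1% and 31.1% of the regions in the 6 lists. For 96 h the counts were 39 (9.35%) higher and 117 (28.1%) lower, against 7.56% and 28.3%. At 72 h the share of higher regions was thus below the background by rank and above it by fold enrichment. The median percentile within the full lists was 73.3 and 70.2 at 0 h, 77.0 and 76.9 after 72 h and 76.3 and 75 after 96 h, a difference from 0 h of 5.24 and 3.93 points. That difference turned to -2.67 and -0.931 points when percentiles were taken within the 50000 kept intervals, and the lists of 72 and 96 h were longer than those of 0 h. With 2 libraries against 2 no exact two-sided test can pass 0.05, so none was run.

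Enrichment was lower across the 48 h lists as a whole. The median fold enrichment of the 50000 kept intervals was 6.70 and 7.21 at 48 h, against 7.97 to 9.35 in the other libraries, and the median −log10 p of the regions in all 8 lists was 22.8 and 26.3, against 27.6 to 53.2. The measures that follow did not separate the 48 h lists from all others. The −log10 p at rank 50000 was 15.2 and 9.95 at 0 h, 8.05 and 8.62 after 48 h, 14.8 and 14.0 after 72 h and 14.5 and 8.29 after 96 h, so that the weakest kept interval was of like strength in 96 h replicate 2 and at 48 h. The lists held 105185 to 154545 distinct intervals, with 117924 and 139353 at 48 h. Of 15 hepatocyte marker genes, 6 and 10 had a promoter in the kept 48 h lists, against 12 and 13 in the 0 h lists, 7 and 9 in those of 72 h and 9 and 11 in those of 96 h. Of 8 leukocyte markers none did in any library, and of 6 endothelial markers 1 did in a single 72 h library. The stellate and fibroblast list stood at 3 of 6 in all 8 libraries and the cholangiocyte list at 1 to 3 of 5. The part of these differences in the regions missing at 48 h was not tested. The regions lay on every chromosome used, from 0.869% of the regions of the 6 lists on chromosome 17 to 2.22% on chromosome 19.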

How the data were processed

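Bulk ATAC-Seq was done on hepatocyte nuclei, with 2 libraries at each of 4 times after PHx. Per the study's methods, the authors ran the ENCODE ATAC-Seq pipeline: reads were trimmed, aligned to mm10 with Bowtie2 and freed of PCR duplicates, and MACS2 called peaks. The deposited files hold 1 peak list for each library. Tool versions were not given in the sources used here. Every line of a deposited list carries the caller's score for display, its −log10 p and −log10 q, the enrichment as a fold over the surroundings, and where the summit lies. The authors' −log10 p ranked the intervals, the deposited fold enrichment (a ratio) described them, the deposited −log10 q entered 1 alternative, and the deposited score was not used.

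Lines sharing an interval were collapsed to the highest −log10 p, the 50000 strongest intervals per list were kept, and regions were merged at 1 bp of overlap (Python 3.11.15, numpy 2.4.6, pandas 2.3.3). The value of a region in a library is that of its strongest overlapping interval in the full list. A percentile is the share of the full list that an interval exceeds. Sequence came from RefSeq GRCm38.p6 and genes from GENCODE M21 basic. Coordinates of 0 intervals ran past a chromosome end. The promoter class was set from the edges of the region, and the other position classes from the place of the summit. A distance was taken from the summit to the nearest of 41249 coding start sites. Motifs were searched on both strands in 200 bp, and matches of different motifs may overlap. Of 433 listed gene symbols 431 matched. Region merging and motif search were tested on simulated data. Wilson intervals (scipy 1.17.1) cover counting error only.

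Because the rule used the −log10 p of all 8 lists, because regions are not replicates, and because the lists hold no reads from which to repeat the study's test, no p-values were computed. The study describes biological replicates from separate hepatocyte preparations, more at 0 and 48 h than the 2 libraries analysed here. The labels do not name the animals. The regions, gene lists and motifs were chosen with earlier results of these data known. Regions were named by rule: those absent from both full 48 h lists (1 of the 2 is not reported here), the 5 with the highest lowest percentile over the 6 lists, the 5 highest at promoters of coding genes, the 12 highest near a listed gene, places with 3 or more regions, and those nearest to the limit. The second Cpt1a region, the Lipc region and the genes of the remaining list members were named after their values were seen. Alternatives changed the number kept, the filter, the overlap, the promoter limit, the motif window and the libraries used.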

Additional observations from a re-analysis of the deposited data

Results flagged for a closer look

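With 2 libraries per time no library could be tested for standing apart from its group. Lines on chromosomes outside those used made up 0.0197% of the list of 72 h replicate 2 (42 lines), above the 0.0165% and 0.0177% of the 0 h lists (29 and 25 lines).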

How the results depend on the processing

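The number of regions missing only at 48 h, 417, depended on the limit and on both 48 h libraries: it was 238 with 25000 intervals per list, 837 with 100000, 1092 with all intervals and 1730 at equal strength (−log10 p of at least 15). Limiting the kept intervals to q under 0.05 removed no region, so that setting could not change the count (417). The count stayed within 1.5 times of 417 with 200 bp at each summit (545) and with 50% of a region covered (572), though only 211 of the 417 were among the last. Leaving out 1 library gave 523 to 1770, the highest values without a 48 h library. Regions with no interval in the full 48 h lists numbered 5 in place of 2 when those lists were limited to q under 0.05. The promoter share was 4.32% within 500 bp, 14.4% within 2500 bp and 26.5% with 25000 intervals, and 7.07 to 15.9% with 1 library left out. The CTCF share ran from 1.35 to 4.52% and the C/EBP share from 17.1 to 19.5% with 1 library left out. The C/EBP share was 26.1% in 400 bp and 12.9% in 100 bp windows. Regions nearest to a listed gene numbered 14 within 50 kb, in place of 22. The percentile differences from 0 h, 5.24 points at 72 h and 3.93 at 96 h, reversed to -2.67 and -0.931 within the 50000 kept intervals and to -0.0846 and -0.130 in median log2 fold enrichment, and were 3.68 to 6.81 and 2.36 to 5.49 with 1 library left out. The cause of these changes was not tested. No paired analysis was possible because the labels tie the replicate numbers to no animal or batch, and no test was run. Depth is unknown, since the lists hold no reads.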
